A study of Homo sapiens with 2 samples.

Results

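Proteins that are folded in the endoplasmic reticulum (ER) are helped by chaperones and oxidised by disulfide isomerases, and those that fail to fold are moved back to the cytosol and destroyed. The genes described here are 35 that serve these steps or control them. Each gene was represented by the probe sets, groups of short oligonucleotides on the array, that are annotated to its symbol, or an older alias of it, and to no other gene. Of the 35 genes 34 had such a probe set, 86 probe sets in all, among 19775 genes and 54613 probe sets on the arrays. SYVN1, which encodes the ubiquitin ligase HRD1, had none that named it alone and is not analysed here.

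Biotin-labelled total RNA was measured on Affymetrix arrays, 1 array for each of 2 human renal cell carcinoma lines. 786-O, an established line from a clear-cell kidney tumour, has a mutated allele of VHL. The other line was derived from it, holds a functional VHL allele and is named the VHL-bearing line below. The sources used here do not give its vector or promoter, or whether it is 1 clone. The comparison asked which genes differ when VHL works. VHL is the part of a ubiquitin ligase that binds hydroxylated HIF alpha subunits. Values are intensities in arbitrary units, and a difference is log2(VHL-bearing + 16) minus log2(786-O + 16). A positive difference means a higher value on the array of the VHL-bearing line, and folds of dim genes are understated. A gene was counted as measured where the higher of its 2 values exceeded a floor of 22.3, the median of all values, on its representing probe set, that is, its brightest by mean log2 value. With 1 array per line there is no replicate check and no test, and every statement below is about these 2 arrays. A fixed size of 1.5-fold, a difference of 0.58, was used to describe single genes.

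The arrays were alike in scale, with medians of 21.97 for 786-O and 22.58 for the VHL-bearing line, and 13291 genes were measured. Of 10 kidney epithelial markers that had a probe set all were measured, 6 higher and 4 lower on the VHL-bearing array. KRT19, a keratin gene, was at 472 in 786-O and 930 in the VHL-bearing line, and EPCAM, a gene of epithelial adhesion, at 171 and 242. PAX8, a transcription factor of kidney epithelium, was at 1521 and 1068, and CDH2, which encodes N-cadherin, at 1809 and 1347. All 8 measured probe sets of PAX8 were lower on the VHL-bearing array, with differences from -1.08, past 2-fold, to -0.29. Markers of leukocytes (1 of 4 measured, summed intensity 85.2 in 786-O and 80.6 in the VHL-bearing line) and endothelium (3 of 5, 86.5 and 107) were near or below the floor, the measured ones being CD79A at 40.6 and 34.8, VWF at 19.9 and 28.9, PECAM1 at 21.1 and 26.7, and TEK at 23.6 and 27.2. Of 6 fibroblast markers (summed intensity 158 and 182) the measured ones were COL1A1, above the floor on both arrays at 94.8 and 79.9, and LUM, at 5.64 and 37.1. On representing probe sets LUM, with a difference of 1.30, was the 1 marker of these lists past 2-fold. With the 786-O array set to the floor LUM was at least 1.39-fold higher. The part of these markers in the results was not tested. The leukocyte marker PTPRC, the endothelial marker CDH5 and the fibroblast marker DCN were below the floor on both arrays. The brighter VHL probe set was at 28.9 in 786-O and 15.96 in the VHL-bearing line and the dimmer at 6.32 and 7.96, too near the floor to check the labels, so each direction rests on the labels alone.

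Misfolded protein in the ER is sensed by 3 membrane proteins, encoded by ATF6, ERN1 (IRE1) and EIF2AK3 (PERK). ATF6 is cut to release a transcription factor, IRE1 splices the XBP1 transcript so that it encodes another, and PERK slows translation and raises ATF4. Cut ATF6 and XBP1 raise transcription of chaperone and degradation genes through short promoter elements.

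Promoter sequences are shown first because these elements tie the genes to the sensors. RefSeq promoter windows of 300 bases on GRCh38.p14, from 250 before to 50 after a gene's start, were matched by symbol to 31 of the 35 genes and searched on both strands. The ER stress element (ERSE) was searched as CCAAT, any 9 bases and CCACG, ERSE-II as ATTGG, any 1 base and CCACG, and the unfolded protein response element (UPRE) as TGACGTGG. ERSE and ERSE-II share the letters CCACG, with which the UPRE begins on its other strand. ERSE was in 0.0769% of the 35116 promoters in the table and in promoters of 8 of the 31 genes. ERSE-II was in 0.0541% of promoters and in those of 3 of the 31 genes, and the UPRE in 0.729% and 2. A match is a description of letters and not a measured binding site, and no match says only that these letters are not in the window.

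The ERSE matches follow, 5′ to 3′ in the direction of the element, with its fixed letters in capitals and up to 8 bases on each side. HSP90B1 held 2 matches.
HSPA5: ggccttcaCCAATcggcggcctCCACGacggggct
HSP90B1, first: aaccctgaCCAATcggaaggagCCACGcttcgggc
HSP90B1, second: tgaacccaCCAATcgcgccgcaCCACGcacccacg
CALR: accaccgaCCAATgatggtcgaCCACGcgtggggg
CANX: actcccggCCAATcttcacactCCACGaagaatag
PDIA6: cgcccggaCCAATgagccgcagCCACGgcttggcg
XBP1: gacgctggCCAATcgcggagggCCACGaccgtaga
CRELD2: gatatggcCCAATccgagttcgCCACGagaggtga
ERO1B: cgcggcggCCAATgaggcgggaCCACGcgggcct

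The ERSE-II and UPRE matches are shown in the same way. In HYOU1 the UPRE and the first ERSE-II shared 5 bases.
HERPUD1, ERSE-II: ggacgccgATTGGgCCACGttgggaga
SDF2L1, ERSE-II: gggttttgATTGGtCCACGcttccgag
HYOU1, ERSE-II, first: ggcctgggATTGGaCCACGtcacgggg
HYOU1, ERSE-II, second: gcgtactcATTGGaCCACGtcccaggc
HYOU1, UPRE: tggccccgTGACGTGGtccaatcc
DNAJC10, UPRE: gtttaggtTGACGTGGcggtgtgc

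Whole windows are given for 3 genes that carry these elements and differed by unlike amounts between the arrays, in the direction of transcription and with the fixed letters of every match in capitals. HSPA5 lies on the minus strand (chr9:125241294-125241593), HERPUD1 on the plus strand (chr16:56931892-56932191) and HYOU1 on the minus strand (chr11:119057156-119057455).
HSPA5: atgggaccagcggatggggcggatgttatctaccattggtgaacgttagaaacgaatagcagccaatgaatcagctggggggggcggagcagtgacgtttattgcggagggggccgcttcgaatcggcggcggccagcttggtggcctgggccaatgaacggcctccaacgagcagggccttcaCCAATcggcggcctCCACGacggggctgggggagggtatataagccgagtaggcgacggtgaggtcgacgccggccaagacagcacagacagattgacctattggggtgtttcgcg
HERPUD1: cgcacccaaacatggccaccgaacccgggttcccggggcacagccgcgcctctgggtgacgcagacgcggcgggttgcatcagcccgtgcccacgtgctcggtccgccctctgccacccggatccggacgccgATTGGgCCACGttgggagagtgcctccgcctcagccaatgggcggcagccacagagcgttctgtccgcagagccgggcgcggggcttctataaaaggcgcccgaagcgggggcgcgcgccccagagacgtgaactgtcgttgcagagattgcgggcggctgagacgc
HYOU1: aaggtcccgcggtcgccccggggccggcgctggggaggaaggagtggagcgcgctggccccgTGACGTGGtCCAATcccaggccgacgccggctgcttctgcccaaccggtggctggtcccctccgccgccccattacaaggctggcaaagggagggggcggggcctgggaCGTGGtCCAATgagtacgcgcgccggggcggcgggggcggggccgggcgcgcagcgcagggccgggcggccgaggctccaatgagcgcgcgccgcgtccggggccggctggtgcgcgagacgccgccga

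The 34 genes did not move in 1 direction as a group. On their representing probe sets 20 were higher and 14 lower on the VHL-bearing array, all 34 were measured, and 56.8% of all measured genes were higher. Their median difference was 0.08, beside 0.05 for all 13291 measured genes. At least 1.5-fold higher were 3 of the 34, EDEM3, ERO1A and HERPUD1, against a background of 6.25% of measured genes. At least 1.5-fold lower were 3, CLGN, DNAJC10 and ERO1B, against 6.55%, and CLGN alone was at least 2-fold lower, against 2.18%. None was at least 2-fold higher, against 1.54%, so that 1 of 34 was at least 2-fold apart in either direction, against 3.72%. These 6 of 34 genes, read against 12.8% of all measured genes in either direction, are a share near the background. EDEM3 and CLGN were the 2 of these 6 genes for which every alternative setting that gave a value kept the call.

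**Figure D1:**
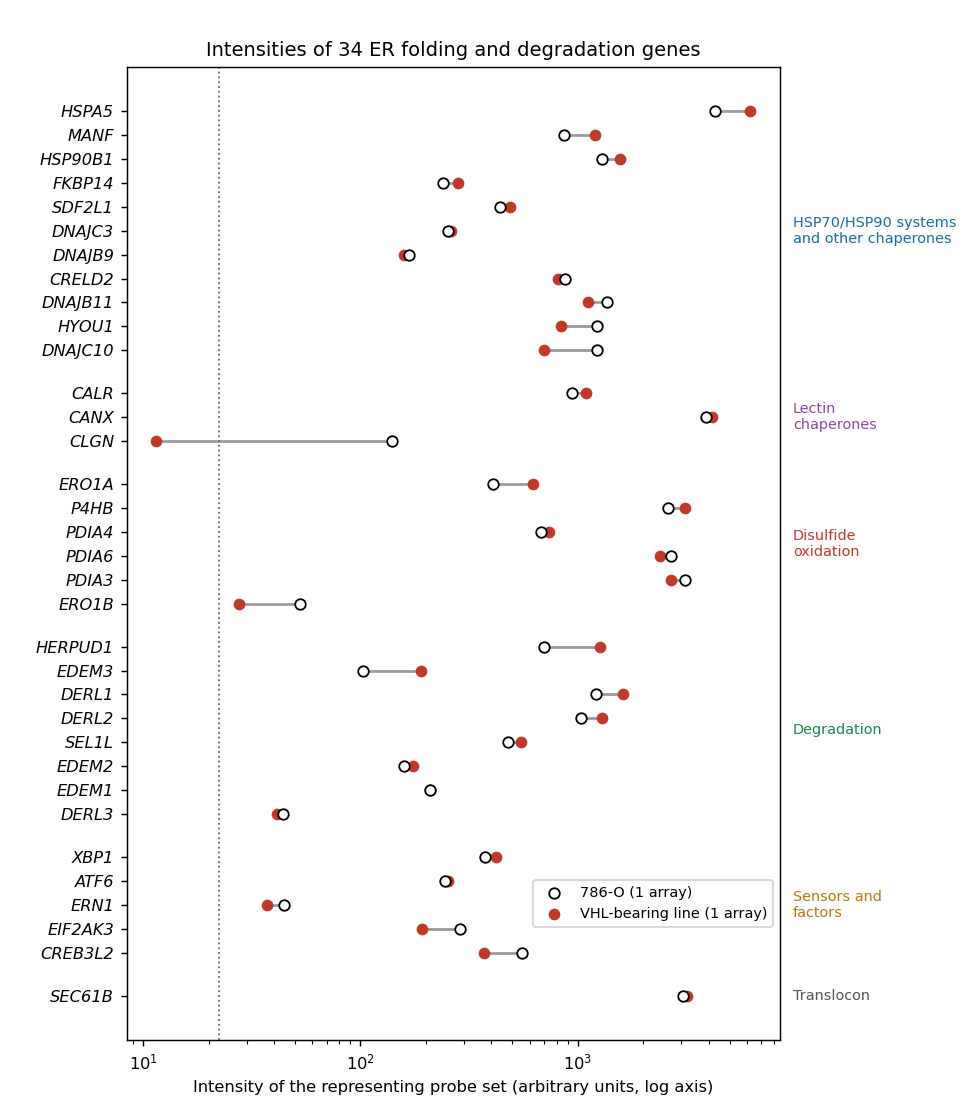
Intensity on each array (log axis, arbitrary units) of the representing probe set of 34 genes, grouped by role; open circles are 786-O, filled circles the VHL-bearing line, and the dotted line is the floor of 22.3. Most pairs nearly coincide, and CLGN, at 139 and 11.5, is the widest pair and crosses the floor.

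Error could be judged only from how far the probe sets of 1 gene differed from each other, which says nothing of the spread between cultures or arrays. The SD between probe sets was 0.328 over 6436 genes with several measured probe sets and 0.364 over 22 of the genes described here. All measured probe sets had the same direction in 7 of these 22 genes (31.8%) and in 55.8% of the 6436, with a mean of 3 and 2.73 measured probe sets per gene. The 7 were DERL2, EDEM3, HERPUD1, HSP90B1, PDIA3, PDIA4 and SEL1L. For 12 genes there was 1 measured probe set and so no such check. Over all 78 measured probe sets 42 were higher and 35 lower on the VHL-bearing array, 1 was identical on both, and the median difference was 0.05.

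**Figure D2:**
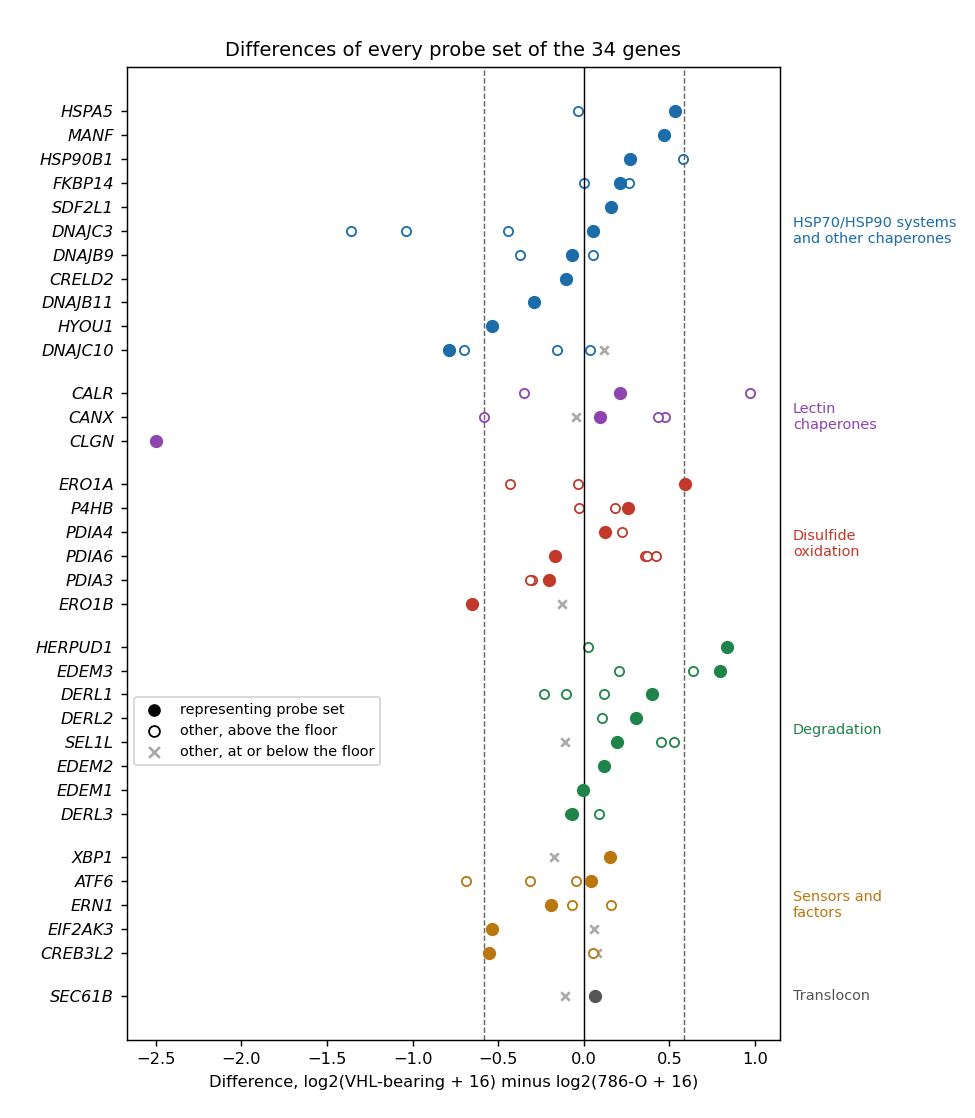
Difference (log2, VHL-bearing minus 786-O) of every probe set of the 34 genes; filled circles are representing probe sets, open circles others above the floor, crosses others at or below it, and dashed lines mark 1.5-fold. DNAJC3, CALR, CANX and ERO1A have probe sets on both sides of 0 that span more than 1 log2 unit. The 3 of PDIA3 lie between -0.31 and -0.20.

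Among the ER chaperones 6 of 11 were higher and 5 lower on the VHL-bearing array, with a median of 0.06, and 1, DNAJC10, was at least 1.5-fold apart. HSPA5, which encodes BiP, the HSP70 of the ER that also holds the stress sensors inactive, was at 4292 in 786-O and 6226 in the VHL-bearing line, a difference of 0.53. Its other probe set was at 114 and 111 and differed by -0.03. HSPA5 was therefore higher on 1 probe set, by 1.45-fold, just under the 1.5-fold size, and nearly equal on the other. HSP90B1, which encodes the ER member of the HSP90 family, was at 1293 and 1560, a difference of 0.27, and its other probe set differed by 0.58. Both HSP90B1 probe sets carry the suffix _x_at, which marks probes that can bind transcripts of related genes, so its values are uncertain.

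HYOU1 encodes a large HSP70-like protein that exchanges nucleotide on BiP. It was at 1223 in 786-O and 840 in the VHL-bearing line on its single probe set, a difference of -0.53, and so lay in the opposite direction to the brighter HSPA5 probe set although both promoters carry ER stress elements. Its neighbours on chromosome 11 were also lower. The 30 measured genes nearest to it in gene order, 15 on each side, had a median difference of -0.35, and 21 of the 30 were lower. The part of this shared shift in the HYOU1 value was not tested.

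The J-domain proteins deliver clients to BiP and start its ATPase cycle. Of their 4 genes 3 were lower on the VHL-bearing array on the representing probe set, beside 41.8% of all measured genes. Over the median of their probe sets all 4 were lower. These 4 genes are a part of the 11 ER chaperones, of which 6 were higher and 5 lower, and not a role counted on its own. DNAJC10, which encodes a reductase that also breaks disulfides of proteins bound for degradation, was at 1224 and 703 on its brightest probe set, a difference of -0.79. Its other measured probe sets were at 624 and 640, at 557 and 497, and at 65.7 and 34.3, with differences of 0.03, -0.16 and -0.70. DNAJC10 was thus lower by at least 1.5-fold on 2 measured probe sets and nearly equal on the other 2. Over the median of all 5 of its probe sets it differed by -0.16. That median also counts a probe set below the floor, which differed by 0.12.

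DNAJC3 encodes a co-chaperone of BiP also known as an inhibitor of eIF2 alpha kinases. It was at 252 and 262 on its brightest probe set, a difference of 0.06, whereas its other probe sets differed by -0.44, -1.04 and -1.36. The last of these was at 59.8 in 786-O and 13.6 in the VHL-bearing line, below the floor there. These probe sets of DNAJC3 disagreed more widely than those of any other gene described here, with a span of 1.41 log2 units, and over their median DNAJC3 differed by -0.74. DNAJB11, a secreted and luminal cofactor of BiP, was at 1362 and 1113, a difference of -0.29 on its single probe set. DNAJB9, a J-domain protein that returns BiP to IRE1, was at 167 and 158, a difference of -0.07, and its dimmer probe sets differed by 0.05 and -0.37.

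The small ER stress proteins were all less than 1.5-fold apart. MANF, a BiP-binding protein that is secreted under stress, was at 867 and 1207, a difference of 0.47 on its single probe set. SDF2L1, a partner of DNAJB11, was at 437 and 490, a difference of 0.16, and CRELD2, a secreted protein induced by ER stress, at 870 and 809, a difference of -0.10. MANF was the member of these 3 with the widest gap, short of 1.5-fold. FKBP14, a prolyl isomerase that acts on collagen, was at 241 and 282, a difference of 0.21, and its other probe sets differed by 0.26 and by 0.00, the latter having the same value of 208 on both arrays.

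CLGN had the widest difference of the 34 genes. It encodes calmegin, a relative of calnexin best known from the testis, where it is needed for sperm function. Its single probe set was at 139 in 786-O and 11.5 in the VHL-bearing line, a difference of -2.50. Since the VHL-bearing value lay below the floor, the fold depends on the pseudocount. With that array set to the floor CLGN was at least 4.06-fold lower, and with pseudocounts of 1 and 64 its difference was -3.49 and -1.43. The 30 neighbours of CLGN on chromosome 4 had a median difference of -0.13.

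The widely expressed lectin chaperones, which hold glycoproteins during folding, were close to equal on their brightest probe sets. CANX, which encodes the membrane-bound calnexin, was at 3889 and 4148, a difference of 0.09. Its other measured probe sets differed by 0.47, 0.43 and -0.58. CALR, which encodes the soluble calreticulin, was at 939 and 1089, a difference of 0.21, with others at 0.97 and -0.35. For CANX and CALR the direction therefore depends on the probe set. The CALR probe sets at 0.21 and 0.97 carry the suffix _x_at, and without suffixed probe sets CALR differed by -0.35 and CANX by -0.58.

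Of the disulfide isomerases and their oxidases 3 of 6 were higher and 3 lower on the VHL-bearing array, with a median of -0.02. ERO1A and ERO1B encode oxidases that recharge protein disulfide isomerase, and ERO1A is also known as a gene induced in hypoxia. ERO1A was at 406 in 786-O and 619 in the VHL-bearing line on its brightest probe set, a difference of 0.59. Its other probe sets were at 416 and 406, and at 226 and 163, with differences of -0.03 and -0.43. The call of ERO1A as 1.5-fold higher rests on 1 of 3 probe sets that point in both directions. Over the median of probe sets, and without suffixed ones, it differed by -0.03. ERO1B was at 52.5 and 27.5, a difference of -0.65, close above the floor, and its other probe set was below it. With a pseudocount of 64 the difference of ERO1B was -0.35, and over the median of its probe sets -0.39, so it passed 1.5-fold under neither of these settings.

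The isomerases themselves lay within 1.20-fold on their brightest probe sets. P4HB, which encodes the founding protein disulfide isomerase, was at 2591 and 3108, a difference of 0.26, with others at 0.18 and -0.03. PDIA3, the isomerase that works with calnexin and calreticulin, was at 3101 and 2693, a difference of -0.20, and its other probe sets differed by -0.30 and -0.31. PDIA3 was the 1 gene of this role that was lower on all of several measured probe sets. PDIA4 was at 679 and 739, a difference of 0.12, with the other at 0.22. PDIA6, an isomerase that also binds IRE1, was at 2701 and 2402, a difference of -0.17, but its other 3 probe sets, all with suffixes, differed by 0.36, 0.37 and 0.42. The median over the probe sets of PDIA6 was 0.37, opposite in sign to the brightest.

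Degradation genes were higher on the VHL-bearing array in 6 of 8 measured members, with a median of 0.25, and 2 of the 8 were at least 1.5-fold higher, beside 56.8% and 6.25% of all measured genes. This is the role with the highest median, but it was singled out after the values were seen, and without suffixed probe sets 5 members were left with a median of 0.09. HERPUD1, a membrane protein that helps to assemble the HRD1 ubiquitin ligase complex, was at 698 in 786-O and 1261 in the VHL-bearing line, a difference of 0.84. Its other probe set was at 25.5 and 26.3, just above the floor, and differed by 0.03. HERPUD1 was higher by 1.79-fold where it was bright and equal where it was dim, and over the median of both it differed by 0.43, under 1.5-fold. The neighbours of HERPUD1 on chromosome 16 had a median difference of 0.26.

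The mannosidase-like EDEM proteins pick glycoproteins for degradation. EDEM3 was at 102 and 189, a difference of 0.80, and its other probe sets were at 123 and 144, and at 74.96 and 125, with differences of 0.21 and 0.64. EDEM3 was higher on the VHL-bearing array on all 3 probe sets and at least 1.5-fold higher on 2 of them, though all 3 carry a suffix. EDEM1, a classical target of XBP1, was at 209 and 208, a difference of -0.01, and EDEM2 at 159 and 174, a difference of 0.12, each on a single probe set.

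SEL1L, the partner that stabilises the HRD1 ligase, was at 479 and 550, a difference of 0.19, and its other measured probe sets differed by 0.45 and 0.53. SEL1L was thus higher in 3 of 3 measured probe sets. The derlins form part of the channel through which clients leave the ER. DERL1 was at 1219 and 1613, a difference of 0.40, but its other probe sets differed by 0.12, -0.10 and -0.23. DERL2 was at 1039 and 1290, a difference of 0.31, with the other at 0.10. DERL3, the most restricted derlin in tissue distribution, was at 44.2 and 41.4, a difference of -0.07, near the floor. Of the derlins DERL2 alone was higher on every measured probe set.

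The sensors and transcription factors were not higher as a group, with 2 of 5 higher and 3 lower, a median of -0.19 and none at least 1.5-fold apart. Their median was -0.07 over the median of probe sets and 0.04 without suffixed probe sets. EIF2AK3 was at 287 and 193, a difference of -0.54 on its 1 measured probe set. CREB3L2, a membrane-bound transcription factor of the ATF6 type that supports secretion, was at 552 and 372, a difference of -0.55, and its other measured probe set was at 66.0 and 69.0 and differed by 0.05. EIF2AK3 and CREB3L2 were both lower by just under 1.5-fold. With the intensity trend removed CREB3L2 differed by -0.61 and HYOU1 by -0.62, which brings both past that size.

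ATF6 was at 245 and 253, a difference of 0.04, while its other probe sets differed by -0.05, -0.32 and -0.69. ERN1 was at 44.5 and 37.0, a difference of -0.19, with others at -0.07 and 0.16. The ERN1 values were close to the floor and the ATF6 probe sets disagreed in size, so neither gene had a clear direction. XBP1 was at 376 and 419, a difference of 0.15. These intensities sum over spliced and unspliced XBP1 transcripts as far as the probes show, and splicing, cleavage of ATF6 and phosphorylation of PERK were not measured. SEC61B, a subunit of the channel through which new proteins enter the ER, was at 3037 and 3174, a difference of 0.06.

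Carriers of the promoter elements did not share a direction. Of 11 genes with an ERSE or ERSE-II match 7 were higher and 4 lower on the VHL-bearing array, with a median of 0.15 and a range from -0.65 for ERO1B to 0.84 for HERPUD1. Of 19 genes with a searched promoter window and neither element 11 were higher and 8 lower, with a median of 0.06. DERL1, whose chromosome was left out of the search, is in neither group. Both UPRE carriers, DNAJC10 and HYOU1, were lower on their brightest probe sets, although 1 probe set of DNAJC10 was slightly higher. The 126 other measured genes with a UPRE match had a median of 0.10.

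**Figure D3:**
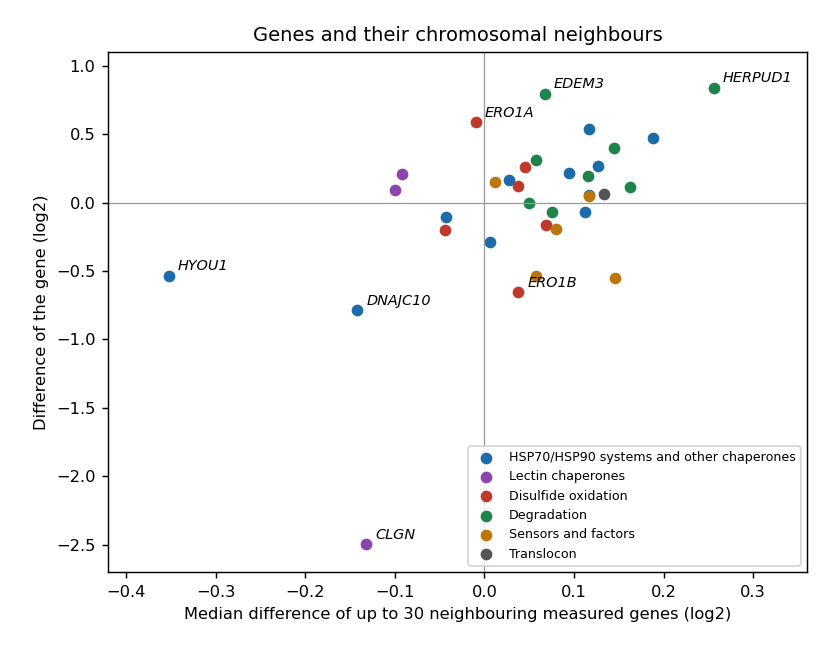
Difference of each of the 34 genes (log2, vertical) against the median difference of up to 30 neighbouring measured genes in gene order (horizontal), coloured by role. HYOU1 stands at the left with a neighbour median of -0.35, and the other 33 lie between -0.14 and 0.26.

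Other genes of the ER were read in the same way as 6 lists, which were chosen with earlier results of these data known. Of 129 genes 122 were measured, 70 higher and 51 lower, with a median of 0.05, and 6 were at least 1.5-fold higher and 7 lower, beside 6.25% and 6.55% of all measured genes. Of 25 other degradation genes UBE4B was at least 1.5-fold higher and the ubiquitin-conjugating enzyme gene UBE2G2 lower, at 748 and 417, a difference of -0.82. BAG6 differed by 0.52, and the list median was 0.07. MARCHF6 differed by 0.37 on its brightest probe set and by -0.47, -0.27 and 0.24 on its other measured ones, so its direction depends on the probe set. Of 10 genes of glycan quality control UGGT1, which re-glucosylates misfolded glycoproteins for the calnexin cycle, differed by -0.99 on its brightest probe set and by -0.29 to 0.14 on its others. MAN1B1 and PRKCSH differed by 0.55 and -0.46, MLEC by 0.34 on its brightest probe set and -0.08 on its other, and the list median was 0.05. Of 25 other folding enzymes FKBP10 at -0.96 and QSOX1 at -0.60 were at least 1.5-fold lower, TMX3 differed by -0.58 and CNPY2 by 0.53, and the median was 0.02.

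The widest gaps around these 34 genes were in translocation and glycosylation, where 2 of 28 were at least 1.5-fold higher, 3 lower, and the median was 0.01. STT3A, the catalytic subunit that glycosylates proteins as they enter the ER, was at 1629 in 786-O and 473 in the VHL-bearing line, a difference of -1.75. STT3B, its counterpart that can act after entry, was at 1147 and 1801, a difference of 0.64, so the catalytic subunits lay in opposite directions, each on 1 probe set. DDOST, a subunit of both complexes, differed by 0.73. SSR3, a subunit of the translocon-associated complex, was lower on all 4 measured probe sets, by -1.19 on the brightest and -4.29 on the widest. The neighbours of STT3A on chromosome 11 had a median of -0.21, with their part in its value not tested.

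Of 18 other stress signalling genes, which include the ATF4 arm, 2 were at least 2-fold higher, TRIB3 at 1.06 and CHAC1 at 1.03, beside 1.54% of all measured genes, and none was 1.5-fold lower, beside 6.55%. DDIT3, which encodes CHOP, was at 216 and 318, a difference of 0.53, and ATF3, below the floor in 786-O, differed by 0.52. Of all 18 genes of this list 12 were higher and 6 lower on the VHL-bearing array, with a median of 0.13. The genes named here are those with the largest differences of the list, and all of them were higher. EIF2AK3, which encodes the ER kinase upstream of ATF4, was lower on the same array, and a link between these values was not tested. Of 16 genes of ER export and retrieval SEC24C was at least 1.5-fold higher at 0.77, SEC24D and SEC24B differed by -0.23 and -0.21, and the median was 0.06. SEC24A differed by -0.56 on its brightest probe set and by 0.15 on its other measured one.

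Chaperones of other compartments served for comparison. Of 16 cytosolic chaperone genes 12 had a single-gene probe set, and all 12 were measured. On representing probe sets 11 of the 12 were higher on the VHL-bearing array, beside 56.8% of all measured genes, with a median of 0.20. HSPB1, a small heat shock protein gene, was at least 1.5-fold higher at 0.82, 1 of 12 beside 6.25%. HSP90AB1, STIP1 and CCT2 differed by 0.27, 0.25 and 0.24. HSPA4 was at 0.24 on its brightest probe set, but its 4 measured probe sets ranged from -2.65 to 0.50. HSP90AA1, DNAJA1 and CCT5 also had measured probe sets on both sides of 0. Without suffixed probe sets the median of the cytosolic list was 0.00 over 7 members. Of 8 mitochondrial chaperone genes 5 were higher and none was 1.5-fold apart on representing probe sets, and the median was 0.02. DNAJA3 was at 0.34, HSPA9 at 0.15, GRPEL1 at -0.14 and CLPP at -0.11. HSPD1 was at 0.03 on its brightest probe set, but its 5 measured probe sets ranged from -1.28 to 0.27. No difference between these lists and the 34 genes was tested.

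**Figure D4:**
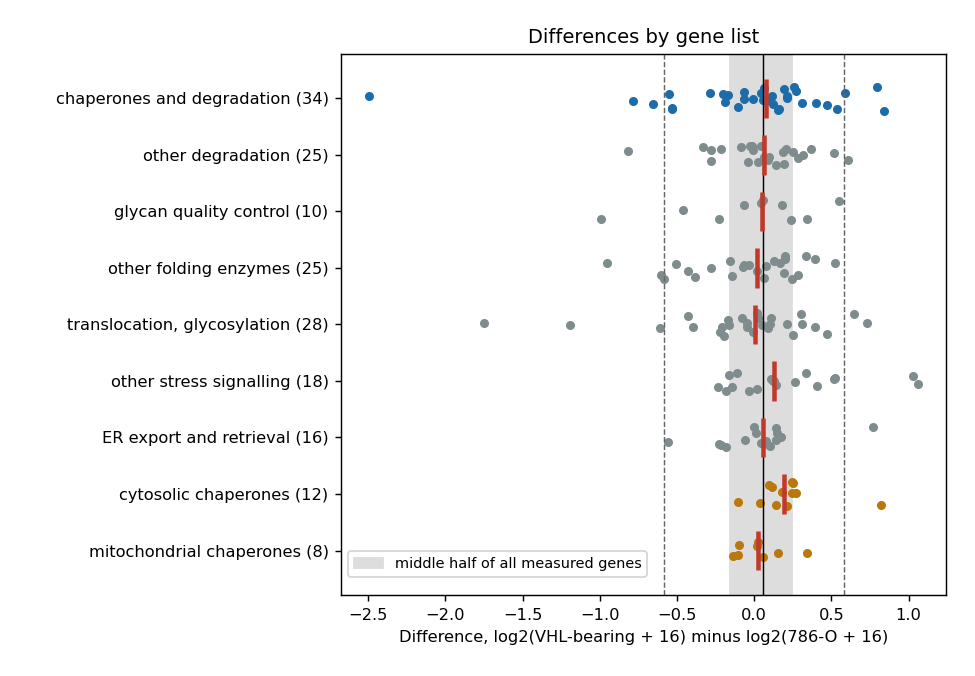
Difference (log2, VHL-bearing minus 786-O) of each measured gene by list, with the number measured in brackets; red bars are list medians, the black line is the median of all measured genes, the grey band spans their quartiles and dashed lines mark 1.5-fold. List medians lie between 0.01 and 0.20, and CLGN and STT3A are the lowest points.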

How the data were processed

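The authors deposited 1 intensity per probe set and array on a linear scale, as the range of the values shows. Of tools, the submitters' processing notes name R 2.10 alone. How background, normalization and probe summary were handled is not given in the sources used. Of 54613 probe sets 2127 (3.89%) held identical values on both arrays. A platform annotation paired 41091 probe sets with 1 gene, 1801 with several and left 11721 unnamed here. For 41037 of the first kind, symbols were updated by Entrez number. Intensities were taken as log2(value + 16). The number of arrays, 1 per line, limits the precision of every value.

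All 35 members are named. Of each other list, markers included, up to 4 measured genes with the largest absolute difference are named, and any gene at least 2-fold apart. HSPA4, HSP90AA1, DNAJA1, CCT5 and HSPD1 are named beside these because their probe sets disagreed. The members, the lists and the motif search were chosen with earlier results of these data known. Neighbours were 13277 measured genes ordered by the GRCh38.p14 annotation. The computing of gene differences was tested on simulated data with a single probe set per gene. The other steps, such as the motif search, the neighbours and the alternatives, were not tested in this way. Software was pandas 2.3.3, numpy 2.4.6, statsmodels 0.14.6 and matplotlib 3.10.9 under Python 3.11.15. The 8 alternatives were quantile normalization, removal of the intensity trend by lowess, no floor, a higher floor (percentile 75), a gene's median over its probe sets, leaving out suffixed probe sets (_s_at, _x_at or _a_at), and pseudocounts of 1 and 64. A gene's median over its probe sets counts those below the floor too.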

Additional observations from a re-analysis of the deposited data

How the results depend on the processing

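No paired analysis was possible because there is 1 sample in each group, and leaving out a replicate could not be done either. The median difference of the 34 genes was 0.00078 over the median of probe sets and -0.019 without suffixed probe sets, where 28 genes were left. The number at least 1.5-fold higher was 1 over the median of probe sets and 0 without suffixed ones, where HERPUD1 and EDEM3 gave no value. The number at least 1.5-fold lower was 5 with the intensity trend removed, which adds CREB3L2 and HYOU1. ERO1A was at -0.031 over the median of probe sets and without suffixed ones. Of 263 alternative values of single genes 249 moved by less than the SD between probe sets, 248 kept their sign and 15 changed it. Leaving out or raising the floor cannot change a gene's own difference. The values under those settings are among the 263, so these counts overstate how stable the genes were. No scaling moved the median of all genes by more than 0.1, a limit wider than that median itself, 0.054. With the intensity trend removed the median of all genes was 0.009 and that of the 34 genes went from 0.078 to 0.018. With quantile normalization they were 0.049 and 0.052. Alternatives for the other lists, and for the 2-fold size, were added after the data were seen. Causes were otherwise not tested.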

Other observations

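Beyond the 34 genes, 20 measured genes had an ERSE or ERSE-II match in a promoter window, 8 of them higher and 12 lower on the VHL-bearing array, with a median of -0.13. Among them SERP1, which protects membrane proteins in ER stress, was at 2085 in 786-O and 2195 in the VHL-bearing line, a difference of 0.07. FICD, which attaches AMP to BiP, was at 62.5 and 52.2, a difference of -0.20, and ALG12, a mannosyltransferase of N-glycan synthesis, at 187 and 170, a difference of -0.13. NAV2 was the only one of the 20 at least 1.5-fold apart, at 617 and 179, a difference of -1.70. These genes were chosen after their values were seen.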
